A study of Mus musculus with 24 samples.

Results

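The regions described here are 11324 ATAC-seq peaks of mouse embryonic stem cells that were called in both shluci libraries of a Chd4 knockdown experiment and in none of the 4 libraries with a hairpin against Chd4. They were chosen from 63076 tested peaks, the peaks of the list of shluci replicate 1 that overlap at least 1 bp of a peak in the list of shluci replicate 2. A tested peak became a member when no peak of the 4 lists of shRNA1 and shRNA2 overlapped it, which is 18% of the tested peaks. The other 51752 tested peaks, each overlapped by at least 1 shRNA list, are called kept peaks. The membership comes from the measured lists themselves, so the count is a description and no test of it is given. A working name for these regions was sites lost with both hairpins. The lists go against that name, because 6834 of the 11324 had a shRNA peak less than 500 bp away, so they are called absent peaks here, meaning absent from the lists.

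ATAC-seq uses a transposase that cuts and tags open DNA, and was run on E14 mouse embryonic stem cells whose CTCF protein carries an auxin-inducible degron (AID), so that the auxin IAA leads to its degradation. This CTCF AID genotype is shared by all 24 libraries, which form 12 groups of 2. The Chd4 set and the Chd8 set each had the hairpin shluci, taken here as the reference, and the hairpins shRNA1 and shRNA2, all without IAA. A control overexpression line was sampled without IAA (oectrl) and after 12 h of IAA (oectrl_IAA), and lines overexpressing wild type CTCF (oeCTCFwt_IAA) or mutated CTCF (oeCTCFmut_IAA) were sampled after 12 h of IAA. In the serum condition, the CTCF AID cells were taken without IAA (0 h) or after 12 h with it. The growth protocol describes serum-free medium with LIF, PD0325901 and CHIR99021 for every library, while the treatment labels of the last 4 give serum. The labels do not say what the CTCF mutation changes, how strongly the hairpins lowered Chd4, or whether replicates were separate cultures. Spreads between replicates may therefore be technical.

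CHD4 is the ATP-dependent remodelling subunit of NuRD, a complex that joins nucleosome remodelling to histone deacetylation through HDAC1 and HDAC2, and it also works with ADNP and HP1 proteins in the ChAHP complex. In embryonic stem cells NuRD tunes the expression of pluripotency genes and is needed for an orderly exit from self-renewal. CHD8 is another ATP-dependent remodeller of the CHD family and has been reported as a partner of CTCF. CTCF binds a long DNA motif through zinc fingers, keeps nucleosomes away from its site and holds cohesin at loop anchors.

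Sequences of 7 absent peaks show what these regions look like. The first set was chosen because the CTCF motif, searched as CCANNAGNNGGC on both strands, lies within 100 bp of the summit and the peak was called by both oectrl libraries and neither oectrl_IAA library. Each shows the GRCm38 plus strand from 100 bases before to 100 bases after the summit, with the motif match in capitals.
Twistnb upstream, chr12:33429343-33429543: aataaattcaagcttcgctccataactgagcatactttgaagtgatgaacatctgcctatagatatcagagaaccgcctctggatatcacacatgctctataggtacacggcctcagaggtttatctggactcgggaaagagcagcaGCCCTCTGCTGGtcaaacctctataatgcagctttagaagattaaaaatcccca
Tmem53 downstream, chr4:117270409-117270609: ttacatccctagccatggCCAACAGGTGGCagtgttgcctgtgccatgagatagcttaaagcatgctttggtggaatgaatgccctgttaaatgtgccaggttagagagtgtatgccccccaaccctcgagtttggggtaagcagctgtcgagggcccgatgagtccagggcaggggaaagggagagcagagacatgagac
Megf9 upstream, chr4:70601480-70601680: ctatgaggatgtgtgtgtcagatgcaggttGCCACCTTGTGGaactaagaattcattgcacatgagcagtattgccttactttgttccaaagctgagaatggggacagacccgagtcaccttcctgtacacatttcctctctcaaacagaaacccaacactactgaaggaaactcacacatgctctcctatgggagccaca

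The second set holds 3 strong absent peaks near genes of pluripotency or of the NuRD complex, and 1 that was also absent in the Chd8 set. Each is 151 bases of the GRCm38 plus strand around the summit. Capitals mark a GC box (GGGGCGGG) at Klf5, a KLF motif (GGGNGTGG) at Tfcp2l1, an ESRRB motif (AAGGTCA) at Mta3 and an AP-1 motif (TGANTCA) near Gcnt4, each found on either strand.
Klf5 promoter, chr14:99298360-99298510: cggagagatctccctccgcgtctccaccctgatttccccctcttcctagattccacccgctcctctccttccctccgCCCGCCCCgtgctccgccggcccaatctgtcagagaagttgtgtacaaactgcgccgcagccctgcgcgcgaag
Tfcp2l1 intron, chr1:118648105-118648255: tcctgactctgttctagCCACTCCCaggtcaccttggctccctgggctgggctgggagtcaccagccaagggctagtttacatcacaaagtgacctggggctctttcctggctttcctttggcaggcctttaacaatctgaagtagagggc
Mta3 intron, chr17:83706772-83706922: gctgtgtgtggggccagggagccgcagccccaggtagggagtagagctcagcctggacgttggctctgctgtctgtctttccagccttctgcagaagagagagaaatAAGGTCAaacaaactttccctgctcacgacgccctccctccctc
Ankrd31 intron, nearest start Gcnt4, chr13:96859344-96859494: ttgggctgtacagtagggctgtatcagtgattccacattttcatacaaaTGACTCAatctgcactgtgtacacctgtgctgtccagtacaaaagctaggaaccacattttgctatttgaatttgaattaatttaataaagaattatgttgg

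The lists differed in length and in peak width. The lists of shluci replicates 1 and 2 held 135583 and 93091 peaks, those of shRNA1 140936 and 91397, and those of shRNA2 141742 and 80619. Median peak width was 104 and 135 bp with shluci, 88 and 107 bp with shRNA1, and 80 and 108 bp with shRNA2. The 4 shRNA lists covered 10.9 to 15.01 Mb, less than the 17.0 and 18.2 Mb of the shluci lists. If MACS2 called these peaks without a control sample, the deposited scores imply 10.0 to 10.2 M reads for the 6 libraries of the Chd4 set, about 20 M for the Chd8 set, 30.8 to 39.7 M for the CTCF lines and 21.7 to 26.1 M for the serum libraries. Promoters of 9 embryonic stem cell markers carried a peak in 7 cases in both shluci libraries, in 7 and 4 in the shRNA1 and in 5 and 6 in the shRNA2 libraries. Per library of this set, promoters of 6 fibroblast markers carried one in 0 to 3 cases, those of 4 endoderm markers in 2 to 3 and those of 3 trophoblast markers in 1 to 3. Peaks do not measure the Chd4 transcript, so the knockdown itself could not be checked. The promoter of Chd4 had a peak only in shRNA1 replicate 1 among the 12 libraries of the Chd sets.

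Absent peaks were weaker than kept peaks, and most had a shRNA peak close by. Of the tested peaks, 11324 met no shRNA list, 11628 met 1, 11732 met 2, 11988 met 3 and 16404 met all 4. Their median −log10 p in shluci replicate 1 was 6.57, against 9.31 for the kept peaks. Their median fold over the local background, as the authors' lists give it, was 4.82 against 6.20, and their median width was 109 bp against 150 bp. The share of tested peaks that was absent was 37.5% in the lowest of 10 percentile bands of the shluci replicate 1 list by −log10 p and 4.01% in the highest band. The upper 5 of these bands held 57.7% of the absent peaks and 80.3% of the kept peaks. These values come from the lists that chose the peaks and are given as a description. The number of absent peaks would be 27536 without shluci replicate 1 and 55123 without shluci replicate 2, since a single list would then set the starting peaks. At the edge of the rule, the 169 absent peaks less than 10 bp from a shRNA peak had a median −log10 p of 5.95, and the 238 kept peaks overlapped by 1 shRNA list over at most 10 bp had 5.56.

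**Figure D1:**
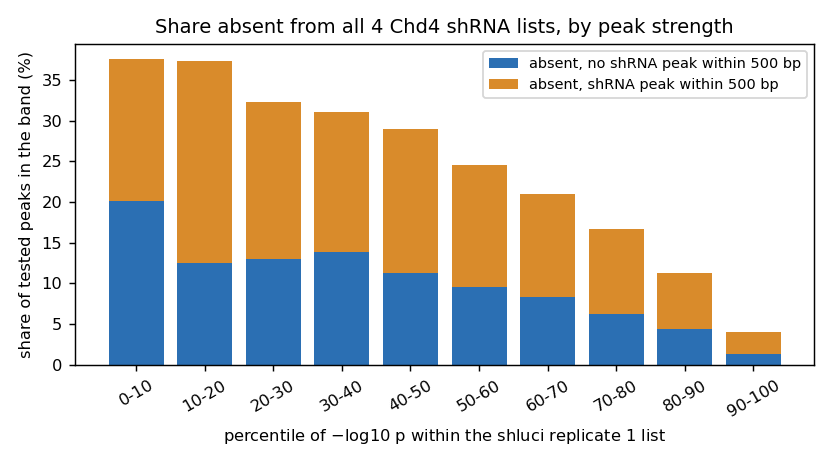
Bars give the percentage of tested Chd4 shluci peaks that were absent from all 4 Chd4 shRNA lists (y axis) in 10 bands of the percentile of −log10 p within the shluci replicate 1 list (x axis), split by whether a shRNA peak lay less than 500 bp away. The share was 37.5% in the weakest band and 4.01% in the strongest.

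Of the 11324, 828 lay less than 50 bp from the nearest shRNA peak, 1166 from 50 to under 100 bp, 3620 from 100 to under 250 bp and 1220 from 250 to under 500 bp. Further out, 777 lay 500 to under 1000 bp away, 2376 from 1000 to under 5000 bp, 1215 from 5000 to under 20000 bp and 122 at 20000 bp or more. The bin of 100 to under 250 bp was the fullest, and the bin of 1000 to under 5000 bp came next. A second shluci peak lay less than 500 bp away from 71.0% of the absent peaks with a nearby shRNA peak, from 31.2% of those without, and from 62.3% of the kept peaks. For 2013 absent peaks (17.8%) the overlapping peak of shluci replicate 2 itself met a shRNA peak, and 2011 of these had a nearby shRNA peak. The 4490 absent peaks without a shRNA peak within 500 bp were 7.12% of the tested peaks. They were weaker than the absent peaks with a nearby shRNA peak: the median −log10 p was 6.31 against 6.70 in shluci replicate 1 and 6.82 against 7.97 in shluci replicate 2. The median strength percentile, the lower of both lists, was 34.0 against 40.9.

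**Figure D2:**
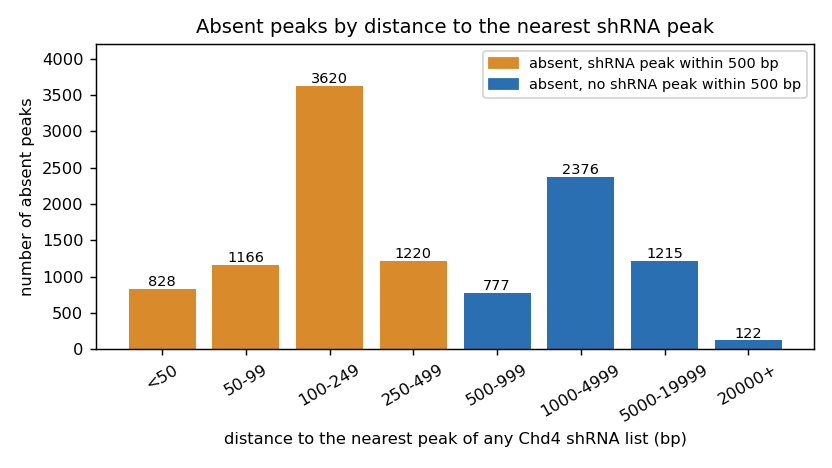
Bars give the number of absent peaks (y axis) by distance in bp to the nearest peak of any of the 4 Chd4 shRNA lists (x axis, unequal bins). The 4 bins under 500 bp hold 6834 peaks and the 4 bins beyond hold 4490.

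The 8 strongest absent peaks were ranked by the lower of their percentiles in both shluci lists, and 6 of them lay at coding promoters. Here and in later rankings, peaks on chromosomes 8 and 18 were left aside. The strongest lay at the promoter of Rps6ka5, which encodes the histone H3 kinase MSK1 (chr12:100725060-100725460, summit 15 bp upstream of the start). Its fold was 14.2 in shluci replicate 1 and 14.99 in shluci replicate 2. It met no shRNA peak, but peaks lay 99 and 136 bp away in shRNA1 replicates 1 and 2 and 91 and 136 bp away in shRNA2. All 18 libraries outside the Chd4 set called it.

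The promoters of Cept1, a phospholipid synthesis enzyme (chr3:106547647-106547770), Anapc4, a subunit of the anaphase-promoting complex (chr5:52833781-52834045), Dhx29, a helicase of translation initiation (chr13:112927390-112927583), and Ralgapa2, a GTPase activator for Ral (chr2:146511994-146512223), were of the same kind. Their nearest shRNA peaks lay 51, 70, 88 and 90 bp away. Away from promoters, the strongest was the Tfcp2l1 intron peak printed above (chr1:118648040-118648236, 20234 bp downstream of the start of a naive pluripotency factor). Its fold was 9.34 and 9.23 with shluci, and shRNA peaks lay 115 and 153 bp away in shRNA1 and 84 and 124 bp away in shRNA2. A peak in an intron of Sh3pxd2a, an adaptor protein of podosomes (chr19:47450344-47450907), had a nearest shRNA peak 136 bp away. At 7 of these 8 places at least 1 shRNA list therefore had a peak no more than 136 bp from the absent peak.

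G3bp1, which encodes a core protein of stress granules, was the exception among the 8. Its promoter peak (chr11:55469201-55469558, summit 280 bp upstream of the start) had a fold of 11.1 in shluci replicate 1 and 11.0 in shluci replicate 2. The nearest peak lay 864 bp away in shRNA1 replicate 2 and 8176 to 8238 bp away in the other 3 shRNA libraries. All 18 libraries outside the Chd4 set called it, with folds of 11.1 to 15.1 in the Chd8 set, 10.8 to 12.8 in the CTCF lines and 7.64 to 8.80 in serum. Folds are relative to each library's own background and are not compared between libraries.

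Over all strengths together, promoters held fewer of the absent peaks than of the kept peaks, and fewest of the absent peaks without a nearby shRNA peak. A coding promoter here is a summit within 500 bp of a protein-coding start in the GENCODE vM21 annotation. It applied to 17.3% of the 11324 absent peaks, to 23.7% of the kept peaks, to 23.0% of the absent peaks with a nearby shRNA peak (95% exact binomial interval in the plot of positions) and to 8.64% of those without. Introns held 45.7% of the absent peaks without a nearby shRNA peak and 34.5% of the kept peaks. Intergenic positions held 39.3% and 34.6%. The intervals cover counting error only, and neighbouring peaks are not independent. Bands of shluci replicate 1 −log10 p were then compared. Absent peaks without a nearby shRNA peak had a lower promoter share than kept peaks in 10 of 10 bands. Absent peaks with one had a lower share in 2 of 10. The split by a nearby shRNA peak comes from the lists that chose the peaks, and kept peaks passed no such filter. A second shluci peak lay within 500 bp of 62.3% of kept peaks. For absent peaks it was 31.2% without a nearby shRNA peak and 71.0% with one. What part the split had in the promoter shares was not tested. For all absent peaks together the promoter share was lower in 8 of 10 bands. In the 2 strongest bands it was 24.54% of absent and 24.47% of kept peaks, and 36.1% of absent and 32.8% of kept peaks. In the weakest band the promoter share was 4.05% of the absent peaks without a nearby shRNA peak, 10.1% of those with one and 8.25% of the kept peaks. In the strongest band it was 18.02%, 44.7% and 32.8%. The promoter share of all absent peaks was 28.2% when the shluci peaks had to reach a −log10 q of 5, where kept peaks had 28.9%. With windows of 250 bp on each side of every summit it was 9.0% of absent and 22.5% of kept peaks. Without shluci replicate 1 it was 10.9% of absent peaks and without shluci replicate 2 it was 7.72%. Each of these last settings starts from a single list and has no kept share beside it.

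**Figure D3:**
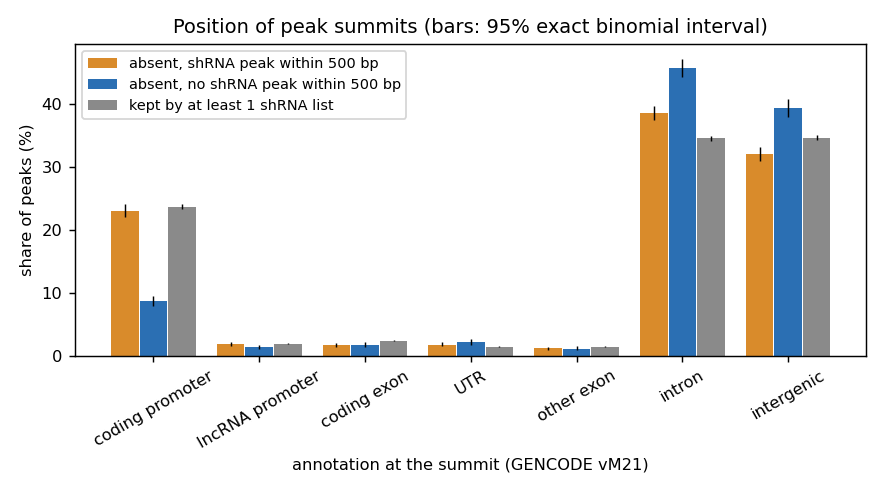
Bars give the percentage of peaks (y axis) whose summit falls in each annotation class of GENCODE vM21 (x axis), for absent peaks with and without a shRNA peak less than 500 bp away and for kept peaks, with 95% exact binomial intervals. Coding promoters make up 23.0%, 8.64% and 23.7% of these sets.

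Base composition differed between these sets. The bases within 100 bp of the summit had a mean GC content of 52.8% in the absent peaks with a nearby shRNA peak, 50.0% in those without and 52.1% in the kept peaks. The mean number of CpG dinucleotides was 6.08, 3.81 and 6.0. A GC box was found in 7.48%, 2.98% and 4.66% of these sets and in 4.85% of all tested peaks. Away from coding promoters it was found in 2.55%, 1.58% and 2.27%, and at coding promoters in 23.98%, 17.8% and 12.4%. The KLF motif was found in 12.5%, 10.4% and 10.5%, against 10.7% of all tested peaks. The ESRRB motif was found in 5.60% of all absent peaks and 5.88% of kept peaks, a SOX motif (CATTGTT) in 3.20% and 3.21%, the octamer (ATGCAAAT) in 1.74% and 2.00%, and a TEAD motif (GGAATG) in 12.8% and 12.3%. An ETS motif (CCGGAAG) was found in 2.99% of absent peaks (95% exact binomial interval 2.69 to 3.32) and 3.73% of kept peaks (3.57 to 3.89). At coding promoters it was found in 8.98% and 8.58%, the other direction, and away from them in 1.74% and 2.22%. Away from coding promoters the octamer was found in 1.91% and 2.42%, and at them in 0.918% and 0.653%, the other direction. The ESRRB motif was found in 6.34% and 6.98% away from coding promoters and in 2.04% and 2.35% at them. By chromosome, the absent share of tested peaks was lowest on chromosome 3, at 14.8%, and highest on chromosomes 11 and 19, at 23.7% each, leaving aside chromosome Y.

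Of 14216 tested peaks at coding promoters, 1960 were absent, and these belonged to 1830 genes. For 569 of these genes another part of the promoter carried a peak in all 4 shRNA lists, and for 333, 325 and 304 in 3, 2 and 1 of them. For 299 genes (16.3%) the promoter carried no peak in any of the 4 lists. This is a share of genes chosen for an absent promoter peak. The share over all genes with a tested promoter peak is not given. Among these 299 were Klf5, a pluripotency factor of the Krüppel-like family, and Sall4, a zinc finger factor of embryonic stem cells that binds NuRD, both picked out after their values were seen. The Klf5 promoter peak (chr14:99298399-99298630) had a fold of 10.3 and 8.34 with shluci. The nearest peaks lay 2536 and 5739 bp away in shRNA1 and 3052 and 14139 bp away in shRNA2. All 18 other libraries called it, with folds of 7.26 to 12.2 in the Chd8 set, 12.6 to 19.3 in the CTCF lines and 8.10 to 9.22 in serum.

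At Sall4, 3 of 5 tested peaks were absent, and none of the 5 was called by all 4 shRNA lists. Its promoter peak (chr2:168766978-168767194, summit 26 bp upstream of the start) had a fold of 9.43 and 7.77 with shluci. The nearest peaks lay 11983 and 24798 bp away in shRNA1 and 16713 and 24510 bp away in shRNA2. Outside the Chd4 set, 17 of 18 libraries called it. The exception was chd8_shluci replicate 1, with a peak 146 bp away. The other absent peaks of Sall4 lay 13134 and 13337 bp upstream (chr2:168780303-168780399 and chr2:168780532-168780592), with nearest shRNA peaks 10805 and 10612 bp away.

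Genes were then taken by list, giving each tested peak the nearest protein-coding start within 50 kb, which does not make that gene a target. Over all genes, 8381 of 44305 such peaks (18.9%) were absent, of which 3220 had no shRNA peak within 500 bp. The 8381 came from 5723 of the 14447 genes with a tested peak. The lists were written with results of these data known, peaks of 1 gene share a locus, and no list was tested, so nothing is called particular to a list.

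For NuRD subunits and CHD4 partners, 27 of 69 tested peaks (39.1%) were absent, from 12 of the 15 genes with a tested peak, and 18 had no shRNA peak within 500 bp. Zmynd8, a chromatin reader that associates with NuRD, contributed 7 of its 11 tested peaks, 6 of them without a nearby shRNA peak. Mta3, a NuRD subunit, had 2 of 6, both without a nearby shRNA peak. The stronger of these is the intron peak printed above (chr17:83706777-83706934), with folds of 8.81 and 8.30 with shluci, nearest peaks 26109 and 5476 bp away in shRNA1 and 1106 and 26096 bp away in shRNA2, and a call in all 18 other libraries. Adnp had 3 of 4 absent, all 3 with a shRNA peak within 500 bp. No tested peak of Chd4, Mbd3 or Gatad2b was absent, out of 1, 1 and 3.

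For naive pluripotency genes, 42 of 153 tested peaks (27.5%) were absent, from 14 of 17 genes, and 20 had no shRNA peak within 500 bp. Esrrb, an orphan nuclear receptor of the naive network, had 11 of 30 absent, 5 of them without a nearby shRNA peak. Klf5 had 6 of 15 and Nr5a2 3 of 6. Nanog 3 of 10, Pou5f1 2 of 5 and Sox2 2 of 6. Dppa3 had none of 7 and Nr0b1 none of 4.

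For primed and Nodal pathway genes, 9 of 40 (22.5%) were absent. The strongest was 1058 bp upstream of Zic2, a neuroectodermal zinc finger factor (chr14:122474328-122474430), with a shRNA peak 285 bp away. For trophoblast genes 9 of 37 (24.3%) were absent, the strongest 4102 bp upstream of Gata2, a GATA factor of trophoblast and blood (chr6:88189737-88189832). For endoderm and mesoderm genes 5 of 44 (11.4%) were absent, the strongest near Foxa2, an endoderm factor (chr2:148039353-148039512). For neural genes 3 of 49 (6.12%) were absent, the strongest near Nkx2-2, a neural tube homeodomain factor (chr2:147189838-147189993), and all 3 had a shRNA peak within 500 bp.

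Most absent peaks were called in libraries outside the Chd4 set, a call being an overlap of at least 1 bp. Median peak width was 283 to 456 bp in the CTCF lines, 371 to 417 bp in serum and 75 to 138 bp in the Chd8 set. What part wider peaks had in these calls was not tested. Of the 11324, 2280 (20.1%) were called by all 18, against 41.6% of kept peaks, and 247 (2.18%) by none, against 0.479%. The median was 14 of 18 libraries, against 17 for kept peaks. Of the 4490 without a nearby shRNA peak, 548 (12.2%) were called by all 18 and 171 (3.81%) by none. Kept peaks were stronger, and the part of strength in this difference was not tested. The 4 strongest absent peaks called by none of the 18 had no protein-coding start within 50 kb, apart from 1 that lay 9070 bp downstream of Crlf2 (chr5:109549834-109549887). At the strongest of them (chr15:19242908-19243126) the folds were 7.04 and 6.54 with shluci.

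**Figure D4:**
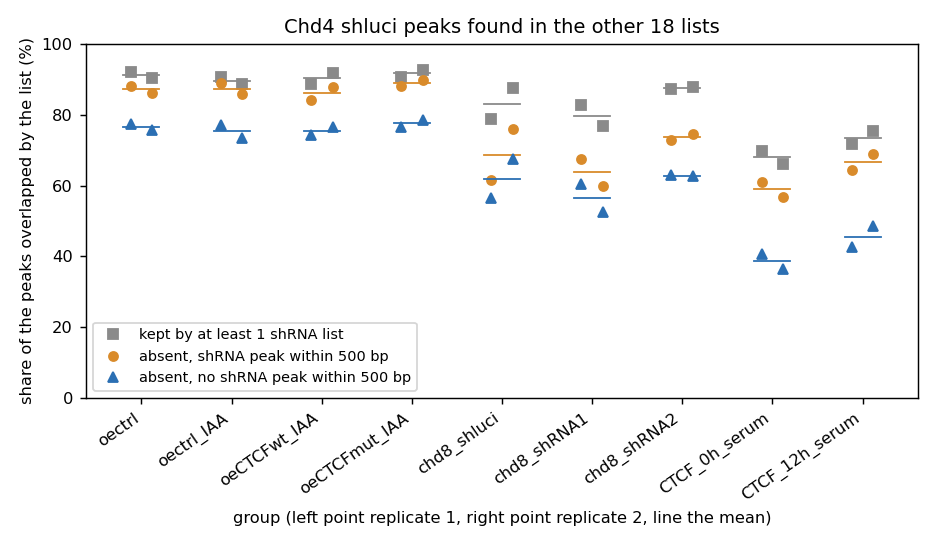
Points give, for each of the 18 libraries outside the Chd4 set (x axis, 2 per group, the line their mean), the percentage of Chd4 shluci peaks overlapped by a peak of that library (y axis). In every library shown, kept peaks lie highest and absent peaks without a shRNA peak within 500 bp lie lowest.

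In the Chd8 set, which has its own shluci libraries, no difference between the absent peaks' calls with and without Chd8 hairpins stood out from a wide replicate spread. Chd8 shluci replicates 1 and 2 called 59.4% and 72.5% of the 11324, shRNA1 64.8% and 56.9%, and shRNA2 68.9% and 69.8%. The groups overlapped. The mean of the 4 shRNA libraries was 0.854 percentage points below that of the 2 shluci libraries (difference −0.854, pooled SD 6.87), which lay inside the spread between replicates. The hairpins went opposite ways, −5.10 points for shRNA1 and 3.40 for shRNA2, and the mean difference was −7.39 without chd8_shluci replicate 1 and 5.68 without chd8_shluci replicate 2, so its sign rests on single libraries. Over the kept peaks the difference was 0.581 points with a pooled SD of 5.49. With 2 libraries against 4, an exact two-sided permutation test cannot give a p below 0.0667, and with 2 against 2 not below 0.333. No such permutation test could pass 0.05, and no test of any kind is reported.

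Few absent peaks followed the same rule in the Chd8 set. There, 88 of the 11324 absent peaks (0.777%) were called by both chd8_shluci lists and by none of the 4 Chd8 shRNA lists, against 0.419% of all tested peaks. Among peaks called by both chd8_shluci libraries, the share was 88 of 5795 absent peaks, or 1.52% (95% exact binomial interval 1.22 to 1.87), and 176 of 38190 kept peaks, or 0.461% (0.395 to 0.534), against 0.6% of all tested peaks. It was above that of the kept peaks in 9 of 10 bands of −log10 p in Chd4 shluci replicate 1. Without chd8_shluci replicate 1 the share of the 11324 was 3.19%, and without chd8_shluci replicate 2 it was 2.24%, so the value rests on both shluci lists. The kept peaks had 0.340% with all lists, 1.10% without the first and 0.728% without the second. Leaving out one of the Chd8 shRNA lists gave 1.19% to 1.62% of the absent and 0.535% to 0.763% of the kept peaks.

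The strongest of the 88 lay 2625 bp upstream of Atad2b, which encodes a bromodomain ATPase (chr12:4914699-4914896), with folds of 6.26 and 6.82 in the Chd4 shluci lists. Of the 18 libraries outside the Chd4 set, 6 called it, both chd8_shluci libraries among them. The next lay in an intron of Npsr1, a neuropeptide receptor gene (chr9:24291655-24291818), 405449 bp downstream of the start of Pcmtd1 (chr1:7494336-7494416), and in an intron of Ankrd31 (chr13:96859364-96859453), the last being the AP-1 sequence printed above. All 4 lay outside promoters. Of the 88, 8 were at coding promoters, out of 1383 absent promoter peaks called by both chd8_shluci libraries (0.578%). Away from coding promoters it was 80 of 4412 (1.81%). Kept peaks had 11 of 10728 (0.103%) at coding promoters and 165 of 27462 (0.601%) away from them. The rule applied to the Chd8 set's own 92704 shared peaks gave 5161 absent peaks, or 5.57%, and 60.6% of these had a Chd8 shRNA peak within 500 bp. Of the 5161, 105 (2.03%) overlapped an absent peak of the Chd4 set, which involved 104 (0.918%) of the 11324. As background, 6.49% of all 92704 Chd8 shared peaks overlapped an absent peak of the Chd4 set, and 0.507% of all tested peaks overlapped one of the 5161. The Chd8 lists held 135410 to 166697 peaks, so the shares of absent peaks in the Chd4 and Chd8 sets, 18% and 5.57%, come from sets that differ in depth and list length.

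In the CTCF lines the absent peaks as a whole were called at similar levels with and without IAA, with overlapping groups. The oectrl replicates called 83.9% and 82.0% of the 11324 and the oectrl_IAA replicates 84.4% and 80.9%. The difference was −0.300 points with a pooled SD of 1.95. Over the kept peaks it was −1.57 points with a pooled SD of 1.32, again with overlapping groups, and over all tested peaks −1.34 with 1.43. Leaving out 1 library turned the sign, from −2.02 without oectrl_IAA replicate 1 to 1.42 without oectrl_IAA replicate 2. With windows of 250 bp on each side of every summit, the difference was −2.59 points with a pooled SD of 0.686 for absent peaks and −2.33 with 0.342 for kept peaks, both beyond the replicate spread. The oeCTCFwt_IAA replicates called 80.3% and 83.4% and the oeCTCFmut_IAA replicates 83.5% and 85.3%. Each of these groups overlapped oectrl_IAA, and none of the differences from oectrl_IAA exceeded the pooled SD. For oeCTCFmut_IAA the difference was 1.77 points with a pooled SD of 1.92 over the absent peaks. Over the kept peaks it was 2.08 with 1.46, and those groups did not overlap.

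The 257 absent peaks (2.27%) with the CTCF motif within 100 bp of the summit behaved otherwise. The motif was found in 2.53% of kept peaks and 2.48% of all tested peaks, and in 94 of the absent peaks without a nearby shRNA peak. The oectrl replicates called 87.9% and 85.2% of the 257, and the oectrl_IAA replicates 65.4% and 64.6%. The groups did not overlap, and the difference was −21.6 points with a pooled SD of 1.42. Over the 1308 kept peaks with the motif the difference was −21.0 points with a pooled SD of 1.46. Among the absent peaks it was −31.4 points with a pooled SD of 1.19 over the 94 motif peaks without a nearby shRNA peak, and −16.0 points with a pooled SD of 1.56 over the 163 with one. The differences between these falls were not tested. As given above, absent peaks with a nearby shRNA peak more often had a second shluci peak within 500 bp. The lists do not tell whether a call came from such a neighbour. Over the absent peaks without the motif the difference was 0.194 points with a pooled SD of 1.98. Lines with overexpressed CTCF lay between, at 82.1% and 81.7% for oeCTCFwt_IAA and 77.4% and 82.5% for oeCTCFmut_IAA. Both are compared with the same oectrl_IAA libraries.

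**Figure D5:**
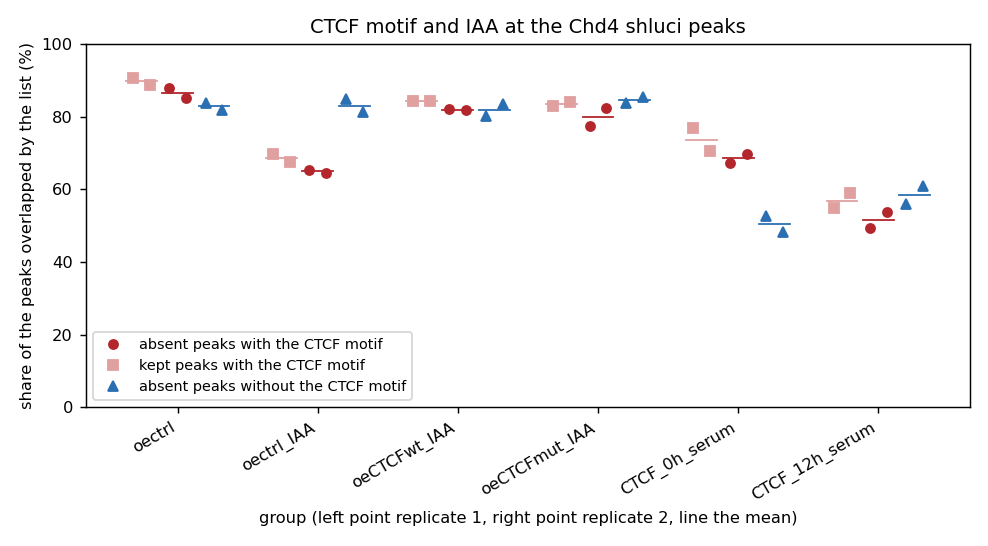
Points give the percentage of peaks overlapped by each library (y axis) of the CTCF lines and the serum condition (x axis, 2 libraries per group, the line their mean), for absent and kept Chd4 shluci peaks with the CTCF motif and for absent peaks without it. Peaks with the motif fall in oectrl_IAA, to 65.4% and 64.6% for the absent ones, and absent peaks without it do not.

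In serum the motif peaks also fell between 0 h and 12 h of IAA. The 0 h libraries called 67.3% and 69.6% of the 257 and the 12 h libraries 49.4% and 53.7%, a difference of −16.9 points with a pooled SD of 2.44. Over kept peaks with the motif it was −16.9 points with a pooled SD of 3.77. Among the 94 motif peaks without a nearby shRNA peak, the mean share called was 79.8% in oectrl, 48.4% in oectrl_IAA, 74.5% in oeCTCFwt_IAA and 67.6% in oeCTCFmut_IAA, and 57.4% at 0 h and 34.0% at 12 h in serum. All absent peaks together rose between 0 h and 12 h in serum, from 53.1% and 48.6% to 55.7% and 60.9%. The rise was 7.41 points with a pooled SD of 3.40. Kept peaks rose by 5.55 points. The serum lists lengthened as well, from 69153 and 59786 peaks to 71773 and 82502, and with lists of equal length the rise of the absent peaks was 4.01 points.

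Counted peak by peak, 256 of the 8890 absent peaks called by both oectrl libraries (2.88%) were called by neither oectrl_IAA library, against 2.58% of all tested peaks. With the CTCF motif it was 47 of 214, or 22.0% (95% exact binomial interval 16.6 to 28.1), against 19.4% of all tested peaks with the motif. In serum the share was 170 of 4822, or 3.53%, against 3.28%, and with the motif 37 of 153, or 24.2%, against 21.5%. Over all absent peaks these 4 counts lay near the background. The shares with and without a nearby shRNA peak are given as a description: the difference between them was not tested, the split comes from the shRNA lists that chose the peaks, and the intervals cover counting error over peaks, not the spread between libraries. In the control line the share was 141 of 3200, or 4.41% (3.72 to 5.18), of those without a nearby shRNA peak and 115 of 5690, or 2.02% (1.67 to 2.42), of those with one, against 2.52% of kept peaks. In serum it was 82 of 1341, or 6.11% (4.89 to 7.53), and 88 of 3481, or 2.53% (2.03 to 3.11), against 3.24% of kept peaks. These sets held unequal shares of promoters, and loss with IAA was rare at promoters, at 3 of 1878 absent (0.160%) and 26 of 12066 kept promoter peaks (0.215%), and in serum at 6 of 1697 (0.354%) and 22 of 11463 (0.192%). Away from coding promoters, the control line share was 4.89% (4.13 to 5.75) without a nearby shRNA peak, 2.73% (2.26 to 3.27) with one and 3.35% (3.16 to 3.55) of kept peaks. In serum it was 7.53% (6.01 to 9.30), 4.09% (3.28 to 5.04) and 4.99% (4.69 to 5.30). With promoters included, the share without a nearby shRNA peak was compared with that of the kept peaks in bands of Chd4 shluci replicate 1 −log10 p. It was higher in 9 of 10 bands in the control line and in 8 of 10 in serum. With the CTCF motif it was 24 of 71, or 33.8% (23.0 to 46.0), without a nearby shRNA peak and 23 of 143, or 16.1% (10.5 to 23.1), with one. Gain with IAA, a call by both oectrl_IAA libraries and by neither oectrl library, was seen at 164 absent peaks (1.45%), against 0.896% of all tested peaks, and 1 of the 164 had the motif. None of the 152 absent peaks with the motif that both chd8_shluci libraries called met the loss rule in the Chd8 set (upper limit 2.40%, exact binomial), against 3 of 974 (0.308%) of the kept peaks with the motif, so the 0 lies near that background.

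The peak upstream of Twistnb, which encodes a subunit of RNA polymerase I (chr12:33429438-33429542), was the strongest of the 47. Its folds were 9.95 and 6.98 with Chd4 shluci, and shRNA peaks lay 45 and 2105 bp away in shRNA1 and 1689 and 1773 bp away in shRNA2. It had folds of 7.29 and 7.72 in oectrl, no peak in oectrl_IAA, 5.53 and 4.92 in oeCTCFwt_IAA, and 5.74 and 4.93 in oeCTCFmut_IAA. In serum it had 5.88 and 5.07 at 0 h and no peak at 12 h. The 6 libraries of the Chd8 set all called it, with folds of 8.03 to 11.3. The peak downstream of Tmem53, a nuclear envelope protein gene (chr4:117270407-117270568), had its nearest shRNA peak 839 bp away and folds of 6.02 and 5.10 in oectrl, none in oectrl_IAA, 4.64 and 4.33 in oeCTCFwt_IAA, and 3.43 and 2.50 in oeCTCFmut_IAA. The peak upstream of Megf9, a membrane protein gene (chr4:70601492-70601604), had folds of 6.48 and 10.5 in oectrl, none in oectrl_IAA, 7.63 and 6.66 in oeCTCFwt_IAA, and a peak in 1 of the 2 oeCTCFmut_IAA libraries. It was called in none of the 4 serum libraries. Another, in a UTR of Slc25a30, a mitochondrial carrier gene (chr14:75761267-75761322), was called by 2 oectrl, no oectrl_IAA, 1 oeCTCFwt_IAA and 1 oeCTCFmut_IAA libraries. Not every absent peak with the motif fell with IAA: the strong Sh3pxd2a intron peak also held it and was called by all 18 libraries.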

How the data were processed

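ATAC-seq peak lists of 24 libraries were used, 1 per library, grouped by the labels. The submitters' processing notes name Trim Galore, Bowtie2, MACS2, deepTools and the build mm10, which is GRCm38, with no versions, settings or order. Per the labels' protocols, each library came from transposed nuclei. The deposited fold is the authors' ratio of signal to local background at the summit, and the deposited −log10 p and −log10 q are the authors' scores within 1 list. Lists began at a −log10 q of 1.30 to 1.31. Peaks are called per library, and absence from a list means below its limit, not closed chromatin. Reads were not used here, so depth per peak is unknown. The implied library depth assumes MACS2 without a control and a genome of 1870000000 bp. Under it, the summit pileup was a whole number at 100% of 500 peaks per library, to a relative tolerance of the printed digits, and at 0 to 2.8% with the fold set 5% off.

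Overlap was at least 1 bp. Positions and motifs came from the GENCODE vM21 basic annotation and the GRCm38 sequence, with coding promoters within 500 bp of 41505 coding starts and 15 motifs within 100 bp of summits on both strands. The octamer overlaps the OCT4-SOX2 motif (TTGTNATGCAAA). Named peaks were, by strength, the top 8, the top 4 at coding promoters, with the Chd8 rule, with the CTCF motif and IAA loss, called by all 18 and by none of the 18 other libraries, and the top of each of 6 gene lists. Peaks on chromosomes 8 and 18 were counted but not named. Members, lists and comparisons were chosen with earlier results of these data known. Alternatives were list lengths, overlap, margin, score, starting list, window, promoter distance and leaving out each library. Interval code was tested on simulated peaks. Python 3.11.15, pandas 2.3.3, NumPy 2.4.6 and SciPy 1.17.1 were used.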

Additional observations from a re-analysis of the deposited data

How the results depend on the processing

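Of 118 values from 7 results, 31 moved past the limit set for them and 87 did not. The limit was the pooled replicate SD for a difference, the 95% binomial interval for a share and 1.5 times for a count. The number of absent peaks was 4490 with no shRNA peak within 500 bp, 2362 for shluci peaks with −log10 q of at least 5 and 7000 for windows of 250 bp on each side of every summit, an alternative chosen after seeing the data. Leaving out 1 library gave 13111 to 55123. The promoter share was 19.4% for lists of equal length, 20.8% for 50% overlap, 8.64% with the 500 bp margin, 28.2% for −log10 q of at least 5, 15.3% starting from shluci replicate 2, 9.0% for summit windows, 24% within 2000 bp of a start, and 7.72% to 18.3% without 1 library. The CTCF motif share was 2.58% for −log10 q of at least 5 and 5.18% within 250 bp of the summit. The share also absent in the Chd8 set was 0.620% for equal lists, 0.568% for 50% overlap, 1.02% with the margin, 0.296% for −log10 q of at least 5, 1.11% for summit windows and 0.720% to 3.19% without 1 library. The difference with IAA was −2.59 points for summit windows. Without 1 library, the Chd8 difference ran from −7.39 to 5.68, the IAA difference from −2.02 to 1.42 and the serum difference from 4.82 to 10.0 points. The causes were not tested.

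Between groups of the Chd4 set, correlations of deviations by replicate number were −0.023 to −0.032 over 306507 bins. Replicate number did go with list length and peak width. In every group of the Chd4 set the replicate 1 list was longer and its median peak narrower than in replicate 2. With the replicate block, in which equal numbers were set against each other, 10045 peaks were absent, 15.3% at promoters, and the Chd8 difference was −1.27 points. As the mean of differences within a replicate number it was −0.854 points. The lists give no depth per peak, so the counting error of a single absent peak is unknown.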
